A study of Mus musculus with 474 samples.

Results

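The 10 genes described here act in the wasting of skeletal muscle and in autophagy, and were measured by RNA-seq in the muscle of outbred mice, with 1 library from each animal. They were taken by symbol, and all 10 were present among the 20612 genes deposited and among the 18823 genes that passed the filter on low counts. The genes are the ubiquitin ligase subunits and ligases Fbxo32 (atrogin-1), Trim63 (MuRF1), Fbxo30 (MUSA1) and Fbxo31, the transcription factors Foxo1 and Foxo3, the lysosomal protease Ctsl (cathepsin L), the mitophagy receptor Bnip3, and the ATG8 proteins Map1lc3b and Gabarapl1.

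The animals were Diversity Outbred mice, a stock kept by random mating of descendants of several inbred strains, so that no 2 animals have the same genome. All were fed the same high-fat, high-sugar diet from 4 weeks of age and were harvested at 22 weeks, and the methods name the gastrocnemius as the muscle. Sex is in the titles, as is a number (17, 18, 19, 21 or 23) taken here to be the generation of outbreeding. The methods do not name all of these, so this reading is an assumption. Together the 2 labels gave 10 groups of 45 to 50 animals each, with 45 to 49 females and 46 to 50 males per generation. There was no other diet and no treated group, and the comparisons are therefore of the sexes, of the generations and of animals with each other. Total counts per library, in units of 1000000, ran from 35.9 to 165.7 with a median of 79.3. The sex-linked RNA of 5 libraries missed the ranges set for their label (Xist above 50 and Ddx3y under 0.1 CPM in females, Xist under 5 and Ddx3y above 50 CPM in males). Of these, 1 female missed only narrowly (Ddx3y at 0.13 CPM), 1 male had both RNAs, and 2 females and 1 male had under 1 CPM of either. They were kept under their labels and left out in an alternative.

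The GENCODE annotation types all of them as protein-coding, and the deposited annotation places them on GRCm38 as follows. Fbxo32 lies at chr15:58175879-58214932 (minus strand), Trim63 at chr4:134315120-134329629 (plus), Fbxo30 at chr10:11281330-11298052 (plus), Foxo1 at chr3:52268336-52353221 (plus) and Foxo3 at chr10:42181841-42276755 (minus). Ctsl lies at chr13:64359337-64370890 (minus), Bnip3 at chr7:138890836-138909519 (minus), Gabarapl1 at chr6:129533160-129542346 (plus), and Fbxo31 and Map1lc3b are neighbours on chromosome 8.

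Muscle mass reflects a balance of protein synthesis and breakdown. When insulin and growth factor signalling is low, or glucocorticoids are high, FoxO transcription factors stay in the nucleus and switch on ubiquitin ligases, which mark proteins for the proteasome, and autophagy genes, which build the vesicles that carry cell contents to the lysosome. Fbxo32 and Trim63 are the classical markers of this state and are named atrogenes.

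Levels are given as counts per 1000000 counts (CPM), scaled between libraries with edgeR's TMM factors. To compare genes they were divided by the summed length of all annotated exons, whichever transcript holds them. On this scale, as medians over all animals, the order was Trim63 (86.9 CPM per kb), Fbxo32 (73.9), Bnip3 (67.5), Gabarapl1 (25.7), Fbxo31 (22.03), Map1lc3b (17.1), Ctsl (11.5), Foxo3 (5.79), Foxo1 (5.42) and Fbxo30 (3.13). The order depends on this length, which can include exons that the muscle does not use. Without the division the medians of Map1lc3b (128.8 CPM) and Ctsl (74.7) lay above that of Gabarapl1 (51.7). Neighbours in the order by CPM per kb were not equally far apart. Foxo3 lay above Foxo1 in 49.8% of animals, so these neighbours could not be ordered, and Trim63 lay above Fbxo32 in 72.4% and Fbxo32 above Bnip3 in 62.03%. Bnip3 lay above Gabarapl1 in every animal, Ctsl above Foxo3 in 99.8% and Map1lc3b above Ctsl in 95.8%.

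The genes also differed in how far they ranged among animals. The highest CPM of Trim63 was 22.9 times its lowest, against 19.5 times for Fbxo32, 12.2 times for Gabarapl1, 11.1 times for Foxo1, 6.01 times for Ctsl and 5.93 times for Foxo3. The range was narrower for Fbxo31 (4.94 times), Fbxo30 (3.91 times), Bnip3 (3.80 times) and Map1lc3b (2.92 times). The SD of log2 CPM was taken over all animals after subtraction of the fitted value for sex and generation. It was 0.62 for Foxo1, 0.59 for Trim63 and 0.55 for Fbxo32, above the median of 0.38 over all genes tested. For Map1lc3b it was 0.16, and 10.3% of genes tested had a lower SD.

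**Figure D1:**
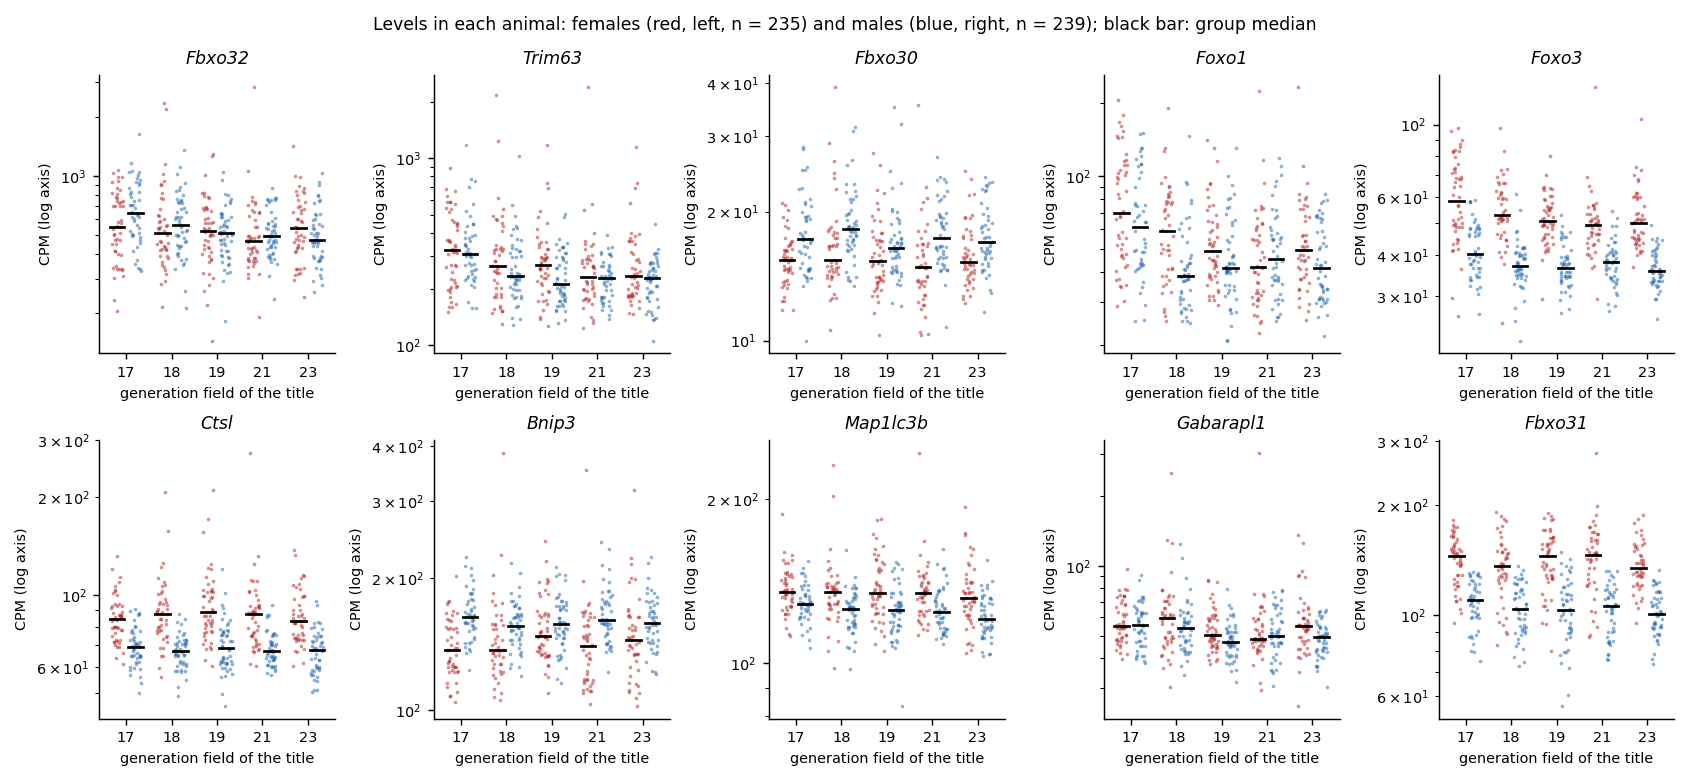
Level of each of the 10 genes in every animal, in CPM on a log axis, by generation, with females in red at left, males in blue at right and a black bar at the median of each group. Foxo3, Ctsl and Fbxo31 sit higher in females in all 5 generations, and single females stand above all other animals for several genes.

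Promoter sequence was looked at for the genes that move together. Of the 10 genes, 9 had a window in the RefSeq table (build GRCm38.p6), from 250 bases before to 50 bases after the start. Fbxo32 had none. The FoxO element GTAAACA was searched on both strands and was found in 1 of the 9 windows, that of Trim63, against 3.65% of all 32851 windows. Its core TAAACA, which is part of the longer element, was found in 3 (Trim63, Ctsl and Gabarapl1) against 13.4%, and the E-box CACGTG, which is the same on both strands and is bound by factors such as TFEB, in 2 (Ctsl and Bnip3) against 7.15%. These matches describe the letters only. The stretches around 1 match each are shown for Trim63, Gabarapl1 and Bnip3, 5′ to 3′ on the strand of the gene, with the match in capitals. They lie at chr4:134314902-134314956 (plus strand), chr6:129533074-129533127 (plus strand) and chr7:138909585-138909638 (minus strand), all before the start of the gene. In Trim63 the element lies on the opposite strand and so appears as its reverse complement.
Trim63: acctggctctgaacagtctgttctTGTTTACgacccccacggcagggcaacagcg
Gabarapl1: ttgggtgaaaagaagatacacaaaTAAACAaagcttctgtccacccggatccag
Bnip3: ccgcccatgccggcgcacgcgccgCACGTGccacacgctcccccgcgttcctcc

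Females and males were compared first, with generation as a covariate. Of the 10 genes, 7 were lower in males (Foxo3, Fbxo31, Ctsl, Trim63, Foxo1, Gabarapl1 and Map1lc3b) and 2 were higher (Fbxo30 and Bnip3), while Fbxo32 did not pass the threshold (edgeR quasi-likelihood test, Benjamini-Hochberg adjusted p under 0.05 over 18823 genes). Sex differences were common in this muscle: 55% of all genes tested passed, 30.6% lower and 24.4% higher in males. The count of 9 in 10 genes is to be read against that share. All differences are given as log2 of male over female, with the SE of the fit over all animals for each of the 10 genes, and none of the 10 separated the sexes completely.

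The largest difference among the transcription factors was in Foxo3, which ran from 24.7 CPM through a median of 51.4 to 130.1 in females and from 21.9 through 37.3 to 61.4 in males. Its log2 difference was −0.50 ± 0.026, 1.41-fold lower in males, with an adjusted p of 1.3e-57 in edgeR. Added after generation, sex accounted for 39.9% of the variance of its deposited score, a variance stabilised value close to log2. The ranges overlapped, but the female median stood above that of males in each generation. Foxo1 ran from 22.4 through 51.9 to 231.9 CPM in females and from 20.9 through 43.3 to 150.3 in males. Its difference of −0.25 ± 0.059 (adjusted p in edgeR 0.00012) was small beside the spread among animals, and sex accounted for 2.68% of the variance of its deposited score.

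Of the ubiquitin ligase genes, Fbxo31, which encodes an F-box subunit, differed most. It ran from 79.6 through 141.2 to 279.1 CPM in females and from 56.5 through 104.8 to 149.3 in males. The log2 difference was −0.43 ± 0.023 (1.35-fold lower in males, adjusted p in edgeR 5.4e-55), and sex accounted for 40.9% of the variance of its deposited score, the most among the 10 genes. Trim63, which marks proteins of the thick filament, ran from 122.5 through 262.02 to 2412 CPM in females and from 105.3 through 234.4 to 1185 in males, a log2 difference of −0.29 ± 0.060 (adjusted p in edgeR 9.1e-06). The medians of both sexes lay close beside this wide range. Fbxo30 ran from 10.3 through 15.2 to 39.1 CPM in females and from 9.997 through 17.2 to 35.1 in males, a log2 difference of 0.16 ± 0.027 (adjusted p in edgeR 1.1e-08), so that this ligase gene went the other way. Fbxo32 ran from 145.3 through 503.997 to 2827 CPM in females and from 183.5 through 522.01 to 1636 in males, and its log2 difference of −0.02 ± 0.051 did not pass (adjusted p in edgeR 0.74). Its sign also depended on the fit, since it was 0.03 with limma on the deposited scores.

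Among the genes of autophagy and the lysosome, Ctsl ran from 55.8 through 85.3 to 274.3 CPM in females and from 45.6 through 67.6 to 119.9 in males. The log2 difference was −0.38 ± 0.026 (1.30-fold lower in males, adjusted p in edgeR 1.1e-39). Map1lc3b, which encodes the LC3B protein of the autophagosome membrane, ran from 97.9 through 134.3 to 243.8 CPM in females and from 83.4 through 125.4 to 161.8 in males. Its log2 difference was −0.12 ± 0.015 (adjusted p in edgeR 4.1e-14), a small shift in a gene with little spread. Gabarapl1, an ATG8 protein of the GABARAP branch, ran from 25.1 through 53.8 to 305.8 CPM in females and from 30.2 through 50.2 to 123.3 in males, a log2 difference of −0.16 ± 0.036 (adjusted p in edgeR 4.8e-05). Bnip3, which sits in the outer mitochondrial membrane and recruits ATG8 proteins, ran from 102.1 through 141.1 to 387.3 CPM in females and from 115.4 through 158.4 to 241.7 in males. It was 0.13 ± 0.023 higher in males on the log2 scale (adjusted p in edgeR 1.0e-07) although its highest single animals were females.

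Within the 5 generations taken one at a time, Foxo3, Ctsl, Map1lc3b and Fbxo31 were lower in males and passed in all 5. Trim63 and Gabarapl1 were lower in males in all 5, passing in 3 and 2, and Fbxo30 and Bnip3 were higher in all 5, passing in 3 and 2. Foxo1 was lower in 4, passing in 1, and 0.01 higher in generation 21. Fbxo32 passed in none and ran from −0.17 to 0.23. Without 3 females with very high levels (DO349, DO168 and DO169, described further on) the same 9 genes passed, but the differences of Trim63 and Gabarapl1 shrank to −0.18 and −0.10 (adjusted p in edgeR 0.0015 and 0.0020). Of all genes tested 55.2% passed without these females.

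**Figure D2:**
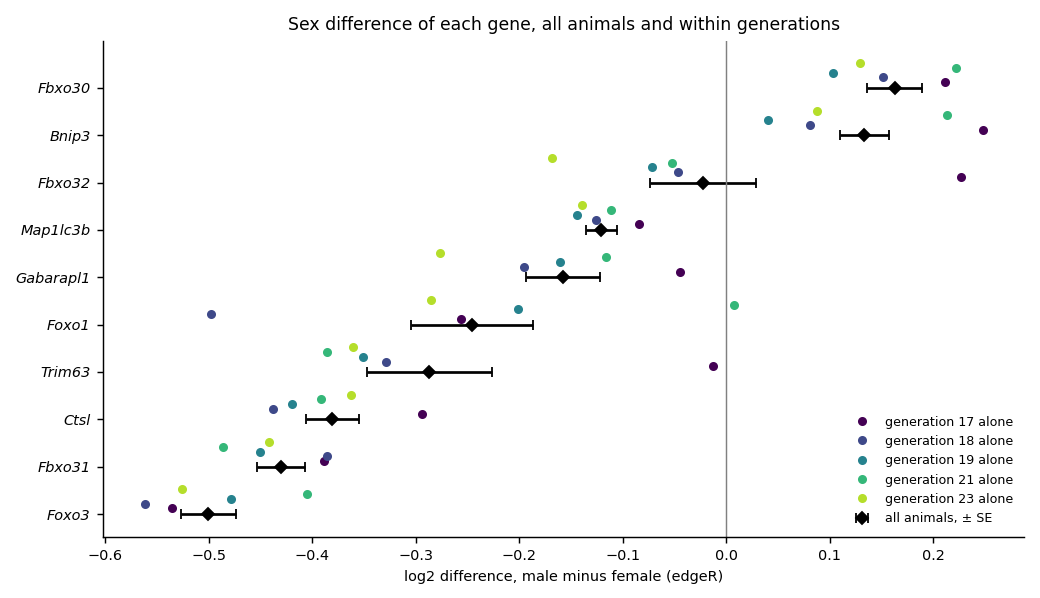
Log2 difference, male minus female, for each gene over all animals (black diamonds, bars are ± 1 SE of the edgeR fit) and in each generation alone (coloured points). Foxo3 at −0.50 and Fbxo31 at −0.43 lie farthest from 0, with all 5 generations on the same side, while the generations of Fbxo32 lie on both sides.

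Other RNA moved with sex as well. All 9 slow fibre markers were lower in males, and their summed level ran from 633.6 through 3714 to 10003 CPM in females and from 895.2 through 2545 to 8289 in males. Of 10 adipocyte markers 9 were lower and 1 was higher in males, with sums from 652.6 through 1939 to 3981 CPM in females and from 697.3 through 1316 to 2585 in males. Of 8 endothelial markers 7 were higher in males (sums from 222.6 through 296.8 to 500.7 in females and from 252.5 through 317.02 to 440.6 in males). The 10 fast glycolytic fibre markers, with 5 higher and 2 lower in males, summed to 95863 through 143893 to 186413 CPM in females and 97908 through 143988 to 176564 in males. In whole muscle, fewer cells of a type and less RNA per cell cannot be told apart. With the scores of 8 fibre and cell type lists as covariates, Foxo1 (−0.10 ± 0.076, adjusted p in edgeR 0.29) and Gabarapl1 (−0.07 ± 0.042, adjusted p in edgeR 0.15) no longer passed, and the 7 others that had passed still did. In this fit 44.4% of all genes tested passed, against 55% without these scores.

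The wider pathways were described from 7 gene lists, leaving out the 10 genes themselves. The genes named from them had SEs of the log2 difference from 0.011 (Atg2b) to 0.071 (Cited2). Among 32 other ubiquitin ligases and protein breakdown genes, 10 were higher and 7 lower in males (53.1% against 55% of all genes), and the median difference was −0.01, as it was over all genes tested. The F-box gene Fbxo21 rose from a median of 12.9 CPM in females to 17.2 in males (log2 difference 0.41), and Trim54, a relative of Trim63, from 199.96 to 236.2 (0.26). The ubiquitin-conjugating enzyme gene Ube2b fell from 328.9 to 291.96 (−0.17) and Ube4a from 59.04 to 53.7 (−0.15). The list as a whole was thus called about as often as all genes.

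Of 20 genes of autophagy initiation and membrane growth, 9 were higher and 6 lower in males (75%). Wdr45b (0.18) and Wipi1 (0.17), which bind the lipid of the growing membrane, rose on the log2 scale, and Atg9a (−0.20) and Atg2b (−0.11), which supply lipid to it, fell. Of 13 ATG8 proteins and conjugation genes, 2 were higher (Atg4a, 0.21, and Map1lc3a, 0.08) and 3 lower, among them the activating enzyme gene Atg7 (−0.08) and Gabarap (−0.08), or 38.5% in all. Of 15 autophagy receptors and mitophagy genes, 3 were higher and 7 lower (66.7%). Optn (0.36) and Sqstm1 (0.18), receptors for ubiquitin-marked cargo, rose, and the glycogen receptor gene Stbd1 (−0.44) and the mitophagy receptor gene Fundc1 (−0.22) fell.

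Of 28 lysosomal genes and regulators, 8 were higher and 12 lower in males (71.4%), with the fusion proteins Vamp8 (0.26) and Snap29 (0.26) up and the proteases Ctsf (−0.31) and Ctss (−0.26) down. Ctss is also made by macrophages, and its medians of 4.27 CPM in females and 4.22 in males lay close together. Of 24 genes of the FoxO family and FoxO-responsive genes, 8 were higher and 10 lower (75%). Sesn1, which restrains mTORC1, was 2.01-fold lower in males (median 31.4 CPM in females and 17.7 in males, log2 difference −1.01 ± 0.047, adjusted p in edgeR 1.1e-69), and the cell cycle inhibitor gene Cdkn1a fell by 0.58. Cited2 (0.63) and the insulin receptor substrate gene Irs2 (0.54) rose, although the medians of Cited2 were only 22.3 CPM in females and 24.6 in males. Of 22 growth signalling genes upstream of FoxO, 9 were higher and 4 lower (59.1%), with Igf1 at 0.48 and Sgk1 at 0.28, and Pik3r1, a regulatory subunit of PI3-kinase, at −0.53 and Pik3ca at −0.10. None of these lists moved in 1 direction as a whole, and their medians lay between −0.03 and 0.03.

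The 5 generations were compared next, with sex as a covariate. Foxo1, Trim63, Foxo3, Gabarapl1 and Fbxo32 differed, 5 of the 10 genes, against 7.56% of all genes tested. The other genes, Fbxo30, Ctsl, Bnip3, Map1lc3b and Fbxo31, did not pass, with adjusted p between 0.28 and 0.89 in edgeR. The test asks only whether any generation differs.

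Foxo1 had its highest median in generation 17, where it ran from 25.1 through 65.7 to 206.2 CPM in 94 animals. The medians of generations 18, 19, 21 and 23 were 43.5, 43.8, 44.3 and 45.2 CPM. The fitted range between generations was 0.58 on the log2 scale (adjusted p in edgeR 2.5e-09). Added after sex, generation accounted for 9.31% of the variance of its deposited score. Trim63 was also highest in generation 17, from 149.7 through 312.6 to 1185 CPM, with medians of 246.6, 253.8, 226.8 and 229.8 in the later ones, a fitted range of 0.49 (adjusted p in edgeR 9.1e-06). Every generation overlapped every other in both genes.

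Foxo3 followed with a median of 48.3 CPM in generation 17 and of 42.4, 43.5, 42.8 and 42.2 in the others, a fitted range of 0.21 (adjusted p in edgeR 1.8e-05). Fbxo32 had medians of 610.1, 529.6, 516.2, 478.9 and 500.1 CPM from generation 17 to 23, with a range of 0.27 that passed narrowly (adjusted p in edgeR 0.027). It missed the threshold in DESeq2, with total count scaling, with library stretch as a covariate and in limma (adjusted p from 0.052 to 0.086). Gabarapl1 differed in another order, with medians of 55.3 and 56.2 CPM in generations 17 and 18 and of 48.8, 49.9 and 51.6 in the later ones (range 0.23, adjusted p in edgeR 0.011). Within females alone 2 of the 10 genes passed (Foxo1 and Foxo3), against 2.85% of all genes, and within males 5, against 2.81%.

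A difference of the sex effect between generations was not found for any of the 10 genes (edgeR, adjusted p from 0.60 to 1), against 0.531% of all genes tested. At an unadjusted p under 0.05 there was 1, Bnip3 (p = 0.018), against 5.97% of all genes, and limma on the deposited scores gave 0 calls as well. Of the lists, the 24 FoxO genes held 8 that differed between generations and the 20 autophagy initiation genes held 2 (33.3% and 10%, against 7.56% of all genes). The immediate-early genes, which respond within minutes to stimulation or handling, held 9 of 10, and the glucocorticoid-responsive genes 3 of 11. Of the cell type markers, the erythroid list held 4 of 5, the macrophage list 4 of 10, the fibroblast list 3 of 9 and the adipocyte list 3 of 10. The endothelial and Schwann lists held 1 of 8 and 1 of 7, and the slow and fast glycolytic fibre lists 0 of 9 and 0 of 10. The part of cell content was not tested. Whether handling or time of harvest differed between generations is not in the labels, and the part of either was not tested.

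The library numbers in the titles fell into 2 runs divided by a gap, the first of 96 libraries. Between these runs Fbxo31 (0.19 higher in the later run on the log2 scale), Fbxo30 (−0.18) and Bnip3 (−0.08) passed in edgeR, 3 of the 10 genes, against 45.4% of all genes tested. With total count scaling Bnip3 did not pass (−0.05, adjusted p in edgeR 0.17) and Map1lc3b did (0.05, adjusted p in edgeR 0.015). Over 5 stretches of up to 96 consecutive numbers, a division added after the data were seen, Fbxo31, Fbxo30 and Bnip3 passed, against 47.4% of all genes tested. The sex differences of Foxo3, Ctsl and Fbxo31 passed in each of these 5 stretches and kept their sign, and library stretch as a covariate changed no call of the sex comparison among the 10.

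Animals were then compared in how far they lay from their group. The absolute deviation of the deposited score from the median of each sex and generation was smaller in males for Trim63 (−0.13 ± 0.036), Ctsl (−0.07 ± 0.016), Foxo3 (−0.06 ± 0.016) and Bnip3 (−0.06 ± 0.015), with adjusted p of 0.013, 0.00099, 0.0038 and 0.0091 in limma. That is 4 of the 10 genes, against 5.55% of all genes tested, and 3.8% that were smaller in males. The other 6 did not pass, and 9 of 10 values lay below 0.

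A few females held the top of several distributions. DO349, a generation 21 female, had the highest level of 7 of the 10 genes and the second highest of the other 3. Its Trim63 was 2412 CPM, 9.76 times the median over all animals, its Fbxo32 2827 CPM (5.49 times) and its Gabarapl1 305.8 CPM (5.91 times). DO168, a generation 18 female, was among the top 3 for 9 genes, with Trim63 at 2182 CPM (8.83 times) and Bnip3 at 387.3 CPM. DO169, of the same sex and generation, was among the top 10 for 7, with Fbxo32 at 2346 CPM (4.55 times). The highest male, DO103, reached 1636 CPM of Fbxo32 and 1185 CPM of Trim63 and stood next after these 3 females in both.

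Over all 18823 genes tested, DO349 stood in the top 10 of all animals for 7.07%, DO168 for 7.84% and DO169 for 4.97%, and in the bottom 10 for 1482, 1382 and 1343 genes, so these libraries stood apart beyond the 10 genes. In DO349, 11 of 24 FoxO genes and 8 of 11 glucocorticoid-responsive genes were in the top 10, beside 2 of 9 slow fibre, 2 of 8 endothelial and 1 of 7 Schwann markers and 0 of 10 adipocyte, 0 of 10 macrophage and 0 of 9 fibroblast markers. In DO168, 12 of 24 FoxO genes, 12 of 32 protein breakdown genes and 10 of 20 autophagy initiation genes were, as were 5 of 9 slow fibre markers, the highest share of any list in this animal. Of the 9 fibroblast markers, 4 in DO349, 3 in DO168 and 4 in DO169 were in the bottom 10 of all animals, as were 3 of 8 endothelial markers in DO168. The part of the fibre and cell type markers was not tested. The total counts of DO349, DO168 and DO169, 91.8, 89.9 and 78.7 (in units of 1000000), were within the range of the others. Main results on co-variation are given also without these 3 animals, which were chosen after their levels were seen, but the genes most like each of the 10 were not recomputed without them. The 4 spread differences all passed without them as well, against 5.3% of all genes tested.

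Co-variation was measured over all animals on the residual of the deposited score after sex and generation. Of the 45 pairs among the 10 genes, 43 had a positive Pearson r, with a median of 0.347. An r of 0.3 or more was reached by 29 pairs (64.4%), against 2.17% of the 177143253 pairs of all genes tested, whose median absolute r was 0.0600. By permutation (100000 resamples, 2-sided, adjusted over the 45 pairs) 43 positive pairs and 1 negative pair passed, and 35 had the smallest p that these resamples can give, 1e-05. By Spearman's rho 36 positive and 2 negative pairs passed. Without DO349, DO168 and DO169, 43 pairs were positive and 15 had an r of 0.3 or more.

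The closest pair was that of both classical ligase genes. Fbxo32 and Trim63 had r = 0.748 and rho = 0.703 (both adjusted p under permutation at the smallest value, 1.3e-05 and 1.8e-05), r = 0.725 without the 2 animals farthest in Fbxo32, and from 0.703 to 0.783 within the 5 library stretches. Foxo1 and Foxo3 followed with r = 0.730 and rho = 0.714 (the same adjusted p by permutation), r = 0.713 without the 2 farthest animals and from 0.661 to 0.766 within stretches. Without DO349, DO168 and DO169 they stood at 0.714 and 0.718. Both pairs held in each generation, with r of at least 0.684 and 0.600.

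The factors were then set against the classical ligases. Trim63 had r = 0.594 with Foxo3 (rho 0.505) and 0.482 with Foxo1 (rho 0.404), whereas Fbxo32 had 0.347 (rho 0.296) and 0.232 (rho 0.186). All 4 passed by permutation, with adjusted p at 1.3e-05 for r. Without DO349, DO168 and DO169 Trim63 had 0.548 and 0.453 with Foxo3 and Foxo1, and Fbxo32 0.280 and 0.186. The difference between the values of Trim63 and Fbxo32 was not tested. Within library stretches Trim63 and Foxo3 ran from 0.465 to 0.652, and Fbxo32 and Foxo1 from 0.133 to 0.368.

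High values also joined Bnip3, Fbxo30 and Gabarapl1 to each other, and Bnip3 and Gabarapl1 to the classical ligases. Fbxo30 and Bnip3 had r = 0.564 (rho 0.443), Bnip3 and Gabarapl1 0.546 (rho 0.422), and Fbxo30 and Gabarapl1 0.427 (rho 0.355), each with an adjusted p of 1.3e-05 by permutation. Without the 2 farthest animals they stood at 0.512, 0.466 and 0.349. Bnip3 had 0.474 with Trim63 (rho 0.313) and 0.467 with Fbxo32 (rho 0.350), and Gabarapl1 had 0.471 with Trim63 (rho 0.307) and 0.460 with Fbxo32 (rho 0.325), with the same adjusted p by permutation. Fbxo30 had 0.371 with Fbxo32 (rho 0.280) and 0.319 with Trim63 (rho 0.200), which also passed. Without DO349, DO168 and DO169 the pairs among the 3 genes stood at 0.504, 0.452 and 0.337, and with Trim63 and Fbxo32 in turn Bnip3 stood at 0.383 and 0.395, Gabarapl1 at 0.364 and 0.375 and Fbxo30 at 0.227 and 0.302. Of the pairs among Bnip3, Fbxo30 and Gabarapl1, that of Fbxo30 and Gabarapl1 ranged most widely within library stretches, from 0.061 to 0.720.

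Fbxo31 had the lowest median r with the other genes, 0.168, against 0.471 for Trim63. Its highest value was 0.390 with Map1lc3b (rho 0.333, adjusted p 1.3e-05 for r by permutation). It was negative with Fbxo30 (r = −0.163, rho = −0.234, adjusted p 0.00037 for r by permutation), from −0.224 to 0.091 within stretches. Fbxo30 and Map1lc3b were the other negative pair, with r = −0.017 that did not pass and rho = −0.148 that did (adjusted p 0.72 and 0.0016 by permutation). Its r was 0.179 in females and −0.287 in males, and −0.159 over all animals without DO349, DO168 and DO169. In all 7 positive pairs passed by r and not by rho. Among them were Foxo1 and Gabarapl1 (r = 0.111), Fbxo30 and Foxo1 (0.107) and Ctsl and Fbxo31 (0.126), which without the 2 farthest animals stood at 0.047, 0.056 and 0.058.

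**Figure D3:**
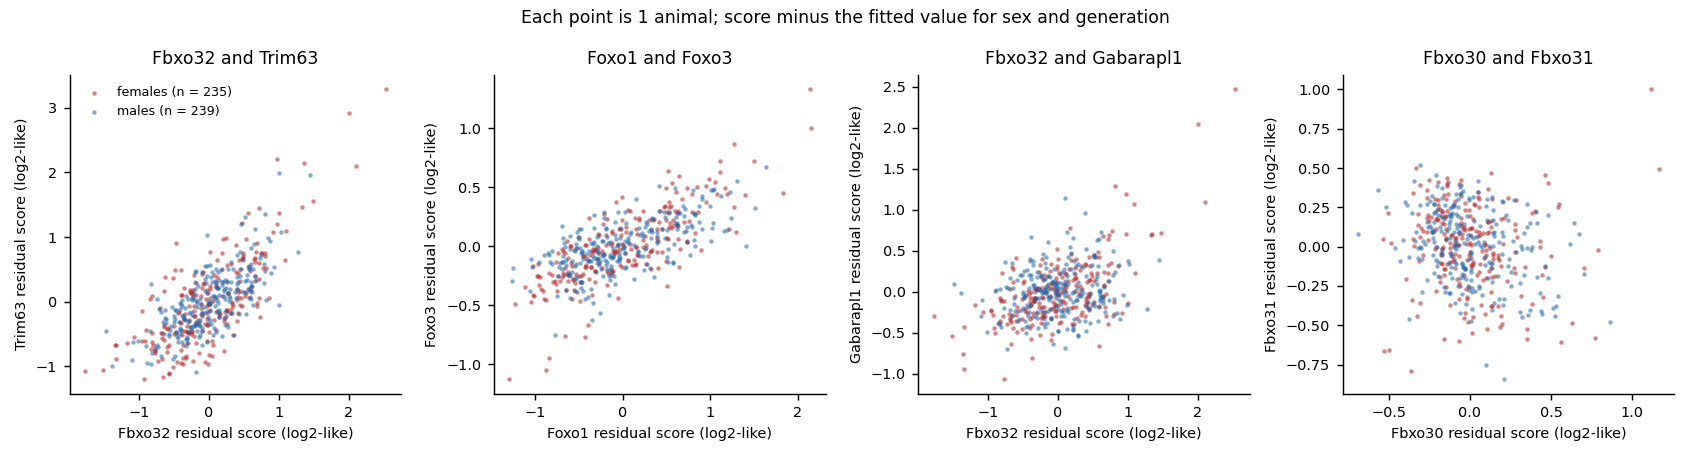
Residual score of 4 pairs of genes, 1 point for each animal (females red, males blue), after subtraction of the fitted value for sex and generation, on a scale close to log2. Fbxo32 with Trim63 and Foxo1 with Foxo3 form 1 narrow cloud for both sexes (r = 0.748 and 0.730), Fbxo32 with Gabarapl1 is more scattered (0.460, and 0.375 without DO349, DO168 and DO169), and Fbxo30 with Fbxo31 slopes weakly downward.

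The sexes differed in this co-variation, a comparison added after the data were seen. The r was higher in females in 45 of 45 pairs, with a median of 0.439 in females and 0.161 in males, against 50.1% of all pairs of tested genes (both medians −0.001) and 60.5% of those with an r of 0.3 or more over all animals (medians 0.409 and 0.363), and 25 pairs passed (permutation of the sex labels within generations, 100000 resamples, 2-sided, adjusted over the 45 pairs). How many of all pairs would pass was not tested. For Fbxo32 and Gabarapl1, r was 0.641 in females and 0.157 in males (adjusted p 0.00023 by permutation), and for Fbxo32 and Map1lc3b 0.543 and 0.061 (adjusted p 0.00034). Trim63 and Foxo3 had 0.708 and 0.372 (adjusted p 0.00034). Fbxo32 and Trim63 had 0.764 in females and 0.723 in males, a difference of 0.04 that did not pass (adjusted p 0.45 by permutation).

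The difference was smaller without the 3 high females and was not seen in 1 library stretch. Without DO349, DO168 and DO169 the r was higher in females in 41 pairs, 14 passed, and the medians were 0.327 and 0.161, against 50.1% of all pairs and 61.4% of those with an r of 0.3 or more. On ranks it was higher in 40 pairs, 13 passed, and the medians were 0.287 and 0.135, against 50.1% and 52.1%. Within generations 33, 38, 41, 44 and 45 of 45 pairs were higher in females, from 17 to 23. Within library stretches the counts were 44, 23, 42, 35 and 44, so that the second stretch, with 54 females and 42 males and medians of 0.184 and 0.192, did not show it. The differences of Fbxo32 and Gabarapl1 and of Trim63 and Foxo3 passed without the 3 animals as well (0.39 and 0.29, adjusted p 0.00045 and 0.00105 by permutation).

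**Figure D4:**
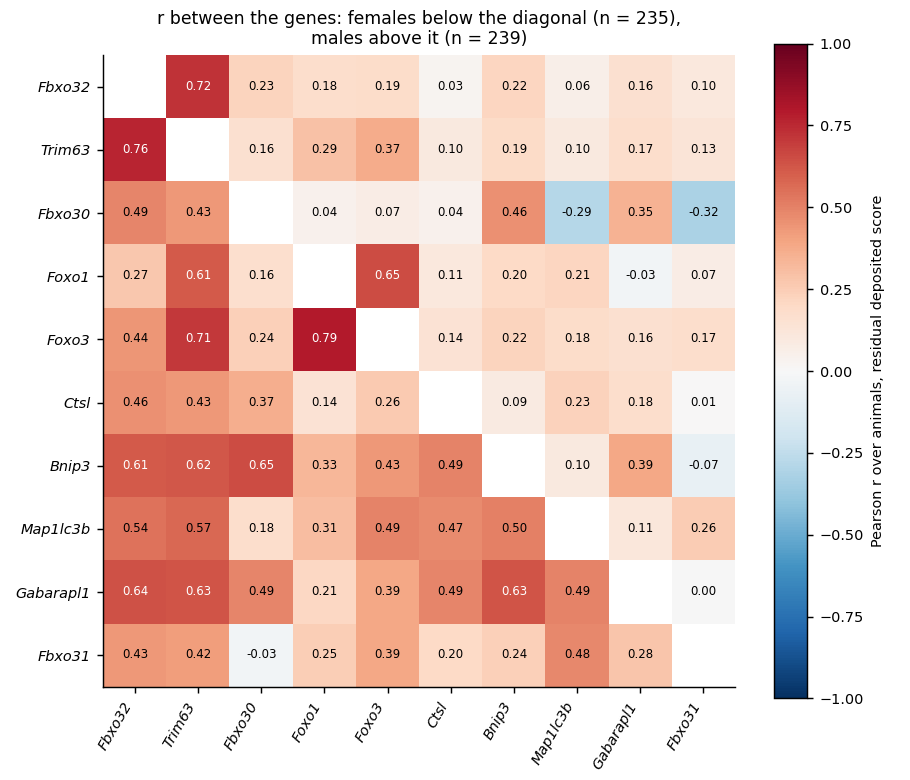
Pearson r between the 10 genes on the residual score, with females below the diagonal and males above it, on a colour scale from −1 to 1. All 45 values are higher in females, with medians of 0.439 and 0.161, and both Fbxo32 with Trim63 and Foxo1 with Foxo3 are high on both sides.

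Each gene was also set against the mean score of 12 lists, 120 relations in all, with p-values by permutation adjusted over the 120. The glucocorticoid-responsive genes, among them Fkbp5, Tsc22d3 and Zbtb16, gave the highest values, with Foxo1 (r = 0.672, rho 0.653), Foxo3 (0.662, rho 0.648) and Trim63 (0.601, rho 0.561), each with an adjusted p of 5.7e-05. Map1lc3b (0.320), Bnip3 (0.279), Fbxo32 (0.251), Fbxo31 (0.208) and Gabarapl1 (0.202) followed and passed, and Fbxo30 (0.085) and Ctsl (0.094) did not. The smallest absolute r that passed on any list was 0.109. Of all genes tested 14.2% had an r of at least 0.109 with the glucocorticoid-responsive genes, and 16.8% a negative r at least as large in size. Within library stretches Foxo1 ran from 0.624 to 0.724 and Trim63 from 0.544 to 0.683. Without the 2 farthest animals the values were 0.662 for Foxo1, 0.650 for Foxo3 and 0.585 for Trim63, and without DO349, DO168 and DO169 they were 0.661, 0.648 and 0.585. Of this list of 11, Ddit4 is also among the FoxO genes and Sgk1 among the growth signalling genes. Of these 11 genes 7 were lower and 1 was higher in males, against 30.6% and 24.4% of all genes.

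Fibre markers divided the genes. Fbxo30 had r = −0.389 with the fast glycolytic fibre score (rho −0.384) and Bnip3 −0.289 (rho −0.276), while Fbxo31 had 0.270 (rho 0.249) and Map1lc3b 0.260 (rho 0.290). Gabarapl1 had 0.344 with the slow fibre score (rho 0.315) and Bnip3 0.246 (rho 0.218). Each of these 6 had an adjusted p of 5.7e-05 by permutation, and without the 2 farthest animals Fbxo30 stood at −0.368 and Gabarapl1 at 0.305, against −0.399 and 0.349 without DO349, DO168 and DO169. Foxo3 (0.189), Trim63 (0.115) and Gabarapl1 (−0.159) also passed by r with the fast glycolytic score. With the slow fibre score 4 genes passed, all positive, against 5.93% of all genes tested with an r of at least 0.109. Ctsl, which macrophages and adipocytes also make, had 0.292 with the adipocyte score (rho 0.277) and 0.175 with the macrophage score (rho 0.184), with adjusted p of 5.7e-05 and 0.00040 by permutation. Fbxo32 had 0.112 with the macrophage score (rho 0.128, adjusted p for r 0.041 by permutation). Of all genes tested 20.9% had an r of at least 0.109 with the adipocyte score and 21.2% with the macrophage score. A negative r at least as large in size was held by 18.4% and 18.1%.

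Fbxo32 had r = −0.239 with the clock-output genes (rho −0.231, adjusted p 5.7e-05 by permutation), and Foxo1 and Foxo3 had −0.232 and −0.209 with the endothelial score (rho −0.259 and −0.243, adjusted p for r 5.7e-05 and 0.00015 by permutation). Trim63 (−0.138) and Gabarapl1 (−0.11) were also negative with the clock-output genes, passing by r and not by rho. Other genes passed in the opposite direction on the same lists: Foxo3 had 0.167 with the clock-output genes (rho 0.174, adjusted p 0.0010 by permutation), and Gabarapl1 had 0.202 (rho 0.161, adjusted p 5.7e-05 by permutation) and Bnip3 0.111 with the endothelial score, the last by r and not by rho (0.054). Of all genes tested 11.8% had an r of at least 0.109 with the clock-output genes and 13% with the endothelial score. A negative r at least as large in size was held by 15.8% and 14.3%. The score of denervation and neuromuscular junction genes was positive with all 10 genes, from 0.028 for Fbxo30 to 0.235 for Foxo3, and passed by r for Fbxo32, Trim63, Foxo1, Foxo3, Bnip3, Map1lc3b, Gabarapl1 and Fbxo31, but not by rho for Fbxo32 and Bnip3 (adjusted p 0.095 and 0.37 by permutation). Of all genes tested 12.1% had an r with this score of at least 0.109, the lowest that passed. The score itself had r = 0.315 with the glucocorticoid-responsive genes. The erythroid and Schwann scores stayed under 0.2 with every gene. With the erythroid score Gabarapl1 (0.175), Bnip3 (0.117) and Ctsl (0.11) passed by r, and only Gabarapl1 also by rho. Of all genes tested 7.21% had an r of at least 0.109 with it. With the Schwann score no gene of the 10 passed. The time of day at harvest is not in the labels, and its part was not tested.

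**Figure D5:**
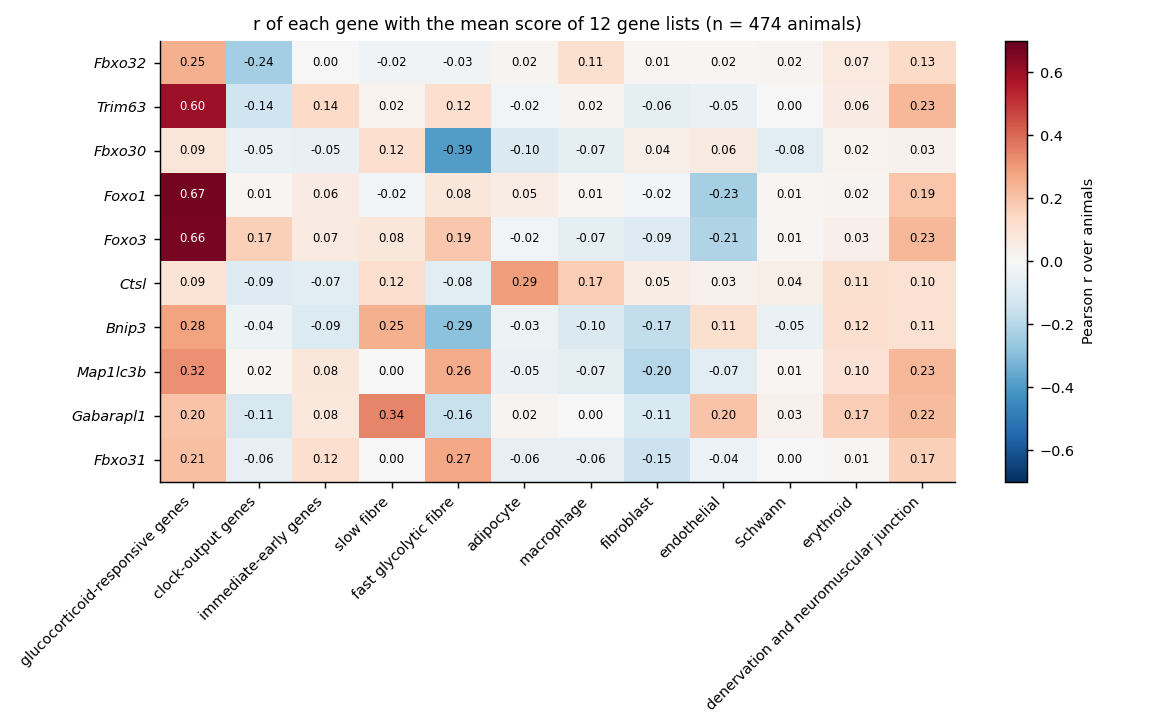
Pearson r over all animals between each of the 10 genes (rows) and the mean residual score of 12 gene lists (columns), on a colour scale from −0.7 to 0.7. The glucocorticoid-responsive list is high with Foxo1 (0.672), Foxo3 (0.662) and Trim63 (0.601), and the fast glycolytic fibre list is lowest with Fbxo30 (−0.389).

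The genes most like each of the 10 were named by the same r among all genes tested that do not overlap it, as a description with no test. Fbxo32 was closest to Klhl38 (r = 0.874, rho 0.844), a gene of the Kelch family that lies 99.6 kb away on chromosome 15, then to Trim63 and to Tmem140 (0.682). Trim63 was closest to Fbxo32, Klhl38 (0.710) and Retreg1 (0.683), which encodes a receptor for autophagy of the endoplasmic reticulum. Foxo1 was closest to the amino acid transporter gene Slc7a8 (0.828), Plin4 (0.759) and Cep85l (0.730), and Foxo3 to Plin4 (0.747), Foxo1 and Klf15 (0.708), a transcription factor of the FoxO list. Both shared Cxxc5 as their lowest gene (−0.642 and −0.557).

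Fbxo30 was closest to Tbc1d15 (0.737), Rb1cc1 (0.732), a subunit of the complex that starts autophagy, and Mier1 (0.712), with Pcnx3 lowest (−0.605). Bnip3 was closest to Lrrc2 (0.638), Zfand5 (0.627) and Retreg1 (0.624), and Gabarapl1 to Retreg1 (0.591), Lrrc2 (0.584) and Tmem140 (0.561), with Fam78a lowest (−0.502). Retreg1 was thus among the 3 closest genes of Trim63, Bnip3 and Gabarapl1. Mrtfa, a coactivator of serum response factor, was the lowest gene of Fbxo32 (−0.551), Trim63 (−0.509) and Bnip3 (−0.583).

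Map1lc3b was closest to Bsdc1 (0.605), Pnpla7 (0.576) and Ypel3 (0.567), with the transferrin receptor gene Tfrc lowest (−0.494). Fbxo31 was closest to Def8 (0.493), Atg9a (0.486), the scramblase gene of the autophagy list, and Bag6 (0.464), with Cnot6 lowest (−0.441). Of these, Def8 lies 1845 kb from Fbxo31 on the same chromosome. The highest values of Ctsl were 0.473 with Slc43a1, 0.468 with Zfyve1 and 0.457 with Tcp11l2, which fell to 0.386, 0.364 and 0.382 without the 2 farthest animals, and its lowest was −0.367 with Tmem233. Cdk20, seventh in this order and named after its values were seen, lies 61.4 kb away on chromosome 13 and had 0.418 (rho 0.470, and 0.458 without the 2 farthest animals).

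Fbxo31 and Map1lc3b are neighbours on chromosome 8 of GRCm38, on opposite strands, with 11.6 kb between them (Fbxo31 at 121549440 to 121578806 and Map1lc3b at 121590361 to 121598760). Both lie inside the long annotated gene Gm20388, whose r was 0.085 with Fbxo31 and −0.017 with Map1lc3b. Zcchc14, which overlaps the end of Map1lc3b on the other strand, had 0.222 with Map1lc3b and 0.097 with Fbxo31. Of the 10 genes 7 overlap another annotated gene, and whether counting used strand is not stated, so reads in the shared bases cannot be assigned with certainty.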

How the data were processed

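Skeletal muscle RNA from 474 Diversity Outbred mice was measured by RNA-seq, 1 library per animal. Per the methods, the authors treated both mates of a pair as separate single reads, aligned them to the pooled transcripts of all founder strains, and estimated counts per gene with EMASE in the GBRS package. The deposited expected counts (estimated, not normalized, 68.6% of them whole) were rounded here. The authors also deposited a variance stabilised score from DESeq2, named in the submitters' processing notes, on a scale close to log2, from 5.24 to 22.9. The build per the labels is GRCm38, and start and end of 99.2% of genes equalled GENCODE M21. Versions of the aligner and counter, and any use of strand, are not given in the sources used here.

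Groups came from the titles. Columns were matched to animals by name, since the columns of 4 animals stand in exchanged places. Counts were scaled with TMM and filtered (minimum count 10, 18823 genes kept and 1789 removed). Sex, generation, their interaction and library run were tested with edgeR 4.0.16 (quasi-likelihood F-test, adjusted p under 0.05 over all genes). Spread was tested with limma 3.58.1 on absolute deviations. Correlations used Python 3.11.15 with scipy 1.17.1, with permutations of 100000 resamples, so that 1e-05 is the smallest p. A new library run started after a gap of more than 3 numbers, which gave only 2 runs. Stretches of 96 numbers were added after seeing the data. DESeq2 1.42.0 on the counts was an alternative. The study also used wave as a covariate, which the labels used here do not hold. Named genes are the 10 genes, the 3 genes with the highest and the 1 with the lowest r for each of them, and up to 2 genes in each direction of the sex comparison from each of 7 lists. Other genes are named only as members of a list, as genes that overlap a named gene, or, for Cdk20, after its values were seen. The genes, lists and rules were chosen with earlier results of these data known. Scripts were tested on simulated data. Animals share the stock, and kinship was not fitted, so p-values rest on the spread between animals taken as independent. Total counts per library (35.9 to 165.7, in units of 1000000) leave counting error small for these genes, and intervals cover no other error.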

Additional observations from a re-analysis of the deposited data

Results flagged for a closer look

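The difference in r between females and males was tested for each of the 45 pairs of genes by permutation of the sex labels within generations, and 25 pairs passed after adjustment (0.05). All 25 were higher in females. Over all pairs of tested genes r was higher in females in 50.1%, and in 60.5% of those with an r of 0.3 or more. How many of all pairs would pass was not tested. For Fbxo32 the differences (r in females minus r in males) were 0.484 with Gabarapl1, 0.482 with Map1lc3b, 0.430 with Ctsl, 0.393 with Bnip3, 0.327 with Fbxo31, 0.263 with Fbxo30 and 0.253 with Foxo3. For Trim63 they were 0.476 with Map1lc3b, 0.456 with Gabarapl1, 0.430 with Bnip3, 0.336 with Foxo3, 0.333 with Ctsl, 0.323 with Foxo1 and 0.288 with Fbxo31. For Fbxo30 they were 0.466 with Map1lc3b, 0.328 with Ctsl and 0.196 with Bnip3.

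Among the other genes the differences were 0.136 for Foxo1 and Foxo3, 0.314 for Foxo3 and Map1lc3b, 0.402 for Ctsl and Bnip3, 0.408 for Bnip3 and Map1lc3b, 0.309 for Bnip3 and Fbxo31, 0.383 for Map1lc3b and Gabarapl1, 0.224 for Map1lc3b and Fbxo31 and 0.285 for Gabarapl1 and Fbxo31. Of these 25 pairs, 14 passed without DO349, DO168 and DO169 and 13 passed on ranks. The pairs that passed in neither were Fbxo30 with Fbxo32, Ctsl, Bnip3 and Map1lc3b, Fbxo31 with Bnip3, Map1lc3b and Gabarapl1, Map1lc3b with Bnip3 and Gabarapl1, Fbxo32 with Foxo3, and Trim63 with Ctsl. Of these, Fbxo30 stood at 0.248 with Map1lc3b, 0.165 with Ctsl and 0.104 with Bnip3 without the 3 females. Ctsl and Bnip3 passed without them but not on ranks. These 3 females held the highest levels of several of the genes, and the second library stretch did not show the difference, as given above.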

How the results depend on the processing

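Of 230 alternative values of the sex difference of single genes 37 kept the sign and missed the threshold, and 6 turned sign. For Fbxo32, which did not pass, the sign turned to 0.033 in limma, 0.23 in generation 17, 0.050 and 0.14 in library stretches 2 and 4, and 0.041 without DO349, DO168 and DO169. Foxo1 stood at 0.0077 in generation 21. Of the 10 genes 5 passed in generation 18, 4 in the first library run (which is also stretch 1) and 5 in stretch 2. Of all genes 24.7%, 25.6%, 23.3%, 27.6% and 27.5% passed from generation 17 to 23, and 19.4%, 21.6%, 23.7%, 28.6% and 23% in stretches 1 to 5, where fewer animals entered each fit.

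For generation, 2 of the 10 genes passed within females, with 2.85% of all genes, and 2.81% of all genes passed within males. For the interaction 0% of genes passed in limma, against 0.531% in edgeR. With total counts, library run differences turned sign for Trim63 (0.024), Ctsl (0.0027) and Gabarapl1 (0.020), Bnip3 no longer passed and Map1lc3b did. For spread, 3.66% of genes passed on log2 CPM, against 5.55%.

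Pairs with r of 0.3 or more numbered 15 without the 3 females, 6 within males and 12 within stretch 2, against 29. Within stretch 2, r turned to −0.0014 for Trim63 and Ctsl, −0.108 for Fbxo30 and Ctsl, −0.061 for Foxo1 and Ctsl, −0.057 for Foxo1 and Gabarapl1, −0.033 for Foxo3 and Ctsl and −0.145 for Gabarapl1 and Fbxo31. In stretch 1 it turned to −0.028 for Foxo1 and Fbxo31 and −0.114 for Ctsl and Fbxo31, in stretch 3 to −0.026 for Fbxo30 and Foxo1, in stretch 4 to −0.043 for Fbxo30 and Foxo3 and in stretch 5 to 0.091 for Fbxo30 and Fbxo31. Within males it turned to −0.030 for Foxo1 and Gabarapl1, −0.072 for Bnip3 and Fbxo31 and −0.0048 for Gabarapl1 and Fbxo31, and with no covariate to −0.047 for Fbxo30 and Foxo3 and −0.098 for Bnip3 and Fbxo31. For Fbxo30 and Map1lc3b, which did not pass, it turned from −0.017 to 0.179 within females, 0.392 in stretch 5, 0.113 in the second library run and 0.130 with fibre and cell type scores as covariates. Of 480 alternative correlations with list scores 17 turned sign, all in relations that had not passed, with absolute r up to 0.062. Of the 120 relations 51 had opposite signs in females and males, and 4 of these had passed over all animals: Bnip3 with the fibroblast, endothelial and erythroid scores and Gabarapl1 with the clock-output genes.

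Of the sex differences in r 13 passed on ranks and 14 without the 3 females, against 25. On ranks the sign turned for Fbxo32 and Trim63 (−0.028), Foxo1 and Ctsl (−0.126), Foxo1 and Map1lc3b (−0.014), Foxo3 and Ctsl (−0.095) and Ctsl and Gabarapl1 (−0.0092). Without the 3 females it turned for Fbxo32 and Trim63 (−0.014), Fbxo30 and Gabarapl1 (−0.019), Foxo1 and Ctsl (−0.081) and Foxo3 and Ctsl (−0.023). The causes were not tested. Stretches, ranks and the 3 females were chosen after seeing the data. No paired analysis was possible because each animal gave 1 library and the groups share no replicate numbers.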
